A study of Mus musculus with 17 samples.

Results

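The early secretory pathway was followed through 56 genes in islets of mice with an altered or deleted *Pax4*. These genes were chosen by name for 9 roles, with 6 genes of the translocon, 4 of the TRAP complex, 5 of signal peptidase, 8 of oligosaccharyltransferase, 5 of glycan synthesis and trimming, 11 of the COPII coat, 8 of the COPI coat, 3 KDEL receptors and 6 cargo receptors. All 56 were present and passed the filter on low counts in both deposited tables, among 19137 genes tested in the *Pax4* R192H table and 20167 in the *Pax4* βiKO table. The R192H table held islets of male wildtype mice (labelled Pax4 WT) and male homozygous knock-in mice (labelled Pax4 HH, here *Pax4* R192H), 3 of each on a standard chow diet (SCD) at 12 weeks of age and 3 of each on a high-fat diet (HFD) for 4 weeks at 16 weeks of age. The knock-in carries the allele that stands for the human R192H variant in every cell of the animal. The βiKO table held islets of 2 male control mice and 3 male *Pax4* βiKO mice (labelled Pax4-BiKO) at 20 weeks of age after 8 weeks of HFD. Both of these groups were homozygous for a floxed *Pax4* allele and both received tamoxifen between 7 and 9 weeks of age, and the βiKO mice alone carried Pdx1-CreERT2, a tamoxifen-activated recombinase under the *Pdx1* promoter, which is active in β cells and in other cells that express *Pdx1*. The controls therefore do not show what the recombinase does by itself. The labels number the samples of a group as biological replicates and do not say whether islets of several mice were combined, so p-values measure the spread between these samples. Each sample is called a mouse here for brevity.

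A protein that a β cell will secrete, insulin included, enters the endoplasmic reticulum (ER) through the Sec61 channel of the translocon, helped by the translocon-associated protein (TRAP) complex. Signal peptidase removes its signal peptide, and oligosaccharyltransferase attaches a glycan built on dolichol to asparagines of many other secretory proteins, which glucosidases then trim. COPII-coated vesicles carry cargo from the ER to the Golgi, COPI-coated vesicles return material to the ER, and KDEL receptors retrieve escaped ER chaperones. Many of these genes are known targets of the unfolded protein response, in which XBP1 and ATF6 bind short promoter elements when unfolded protein accumulates in the ER.

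The total count per mouse was between 24268150 and 42679673 in the R192H table and between 28618787 and 31887499 in the βiKO table. Levels are given as CPM, counts scaled to a common library size, on which 3 counts in a library corresponded to between 0.0724 and 0.126. A pair of identifiers without a name in the annotation took 36.2% to 53.3% of the counts of a mouse in the R192H table, so library sizes were scaled by TMM factors, which ranged from 0.692 to 1.298. *Pax4* itself was listed at 0 in all 17 mice, and the counts could not check a genotype. The 10 islet marker genes summed to between 53569 CPM and 156680 CPM, with none of them at 0 in any group. Marker genes of the surrounding exocrine tissue were present as well, and their levels are given beside the results they moved with.

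On SCD, *Pax4* R192H islets and wildtype islets were compared first, to see how these genes stood before the HFD. By edgeR none of the 56 genes was differentially expressed between the genotypes, and the share of all tested genes called was 0%. Tests were by edgeR (quasi-likelihood, Benjamini-Hochberg adjustment), and a gene was called at an adjusted p below 0.05 with a log2 fold change above 0.5 in size. At an unadjusted p below 0.05, 1 of the 56 genes was higher and 0 were lower, against 210 higher and 419 lower of all tested genes, and DESeq2 called 0 of the 56 and 23 of the 39845 genes with any count. Without a filter on low counts edgeR called 0 of the 56 and 261 of all genes. The log2 fold change was positive for 25 genes and negative for 31, with a median of -0.01, and these values rested on single mice. The number positive was 43, with a median of 0.07, without wildtype mouse 1, 40 without *Pax4* R192H mouse 3, with a median of 0.06, and 17 without wildtype mouse 2, with a median of -0.07. *Kdelr3*, one of the receptors that return chaperones to the ER, was the 1 gene at an unadjusted p below 0.05. Its level was 4.35, 3.51 and 3.09 CPM in the wildtype mice and 5.06, 4.76 and 4.77 CPM in the *Pax4* R192H mice. It was the 1 member of 56 with all *Pax4* R192H mice above all wildtype mice, against 3.62% of all tested genes, and its log2 fold change was 0.42 ± 0.18 (SE, n = 3 per group, edgeR adjusted p = 1.0). The macrophage markers, at 92.0 to 148 CPM in wildtype and 66.1 to 67.1 CPM in *Pax4* R192H islets, and the B and plasma cell markers, at 20.1 to 108 CPM and 1.26 to 12.1 CPM, did not overlap between genotypes on SCD, and their part in these values was not tested.

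On HFD, 9 of the 56 genes were higher in *Pax4* R192H islets than in wildtype islets and none was lower, where 1.46% of all tested genes were called higher and 0.82% lower. The 9 genes were *Kdelr3*, *Ssr4* and *Ssr3* of the TRAP complex, *Sec11c* and *Spcs1* of signal peptidase, *Dad1* and *Krtcap2* of oligosaccharyltransferase, and *Mogs* and *Prkcsh*, which belong to the glucosidases that trim the new glycan. The log2 fold change was positive for 51 of the 56 genes, and its median was 0.35 against -0.01 over all tested genes. In 37 of the 56, each *Pax4* R192H mouse was above each wildtype mouse, against 13% of all tested genes, and in 0 of them each was below, against 9.89%. The acinar markers, which come from the exocrine tissue around the islets, summed to 16689 to 25631 CPM in wildtype and 38209 to 104480 CPM in *Pax4* R192H islets on HFD, without overlap, and the duct and islet markers did not overlap either. With the acinar level as a covariate 0 of the 56 genes and 0 of all tested genes were called, while the median log2 fold change of the 56 was 0.50 and 51 were positive. Since the groups did not overlap, genotype and acinar level cannot be told apart here, and the part of the duct and islet markers was not tested. DESeq2 called 14 members higher, and 616 of the 39845 genes with any count. Leaving out 1 mouse at a time gave between 3 and 8 members and between 61 and 288 genes in all that were called higher. *Kdelr3*, *Ssr4* and *Sec11c* were called in each of these fits, while 3 calls were left without wildtype mouse 1, wildtype mouse 3, *Pax4* R192H mouse 2 or *Pax4* R192H mouse 3, and 5 without *Pax4* R192H mouse 1. In bulk islets, fewer cells of a type and less RNA per cell cannot be told apart.

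**Figure D1:**
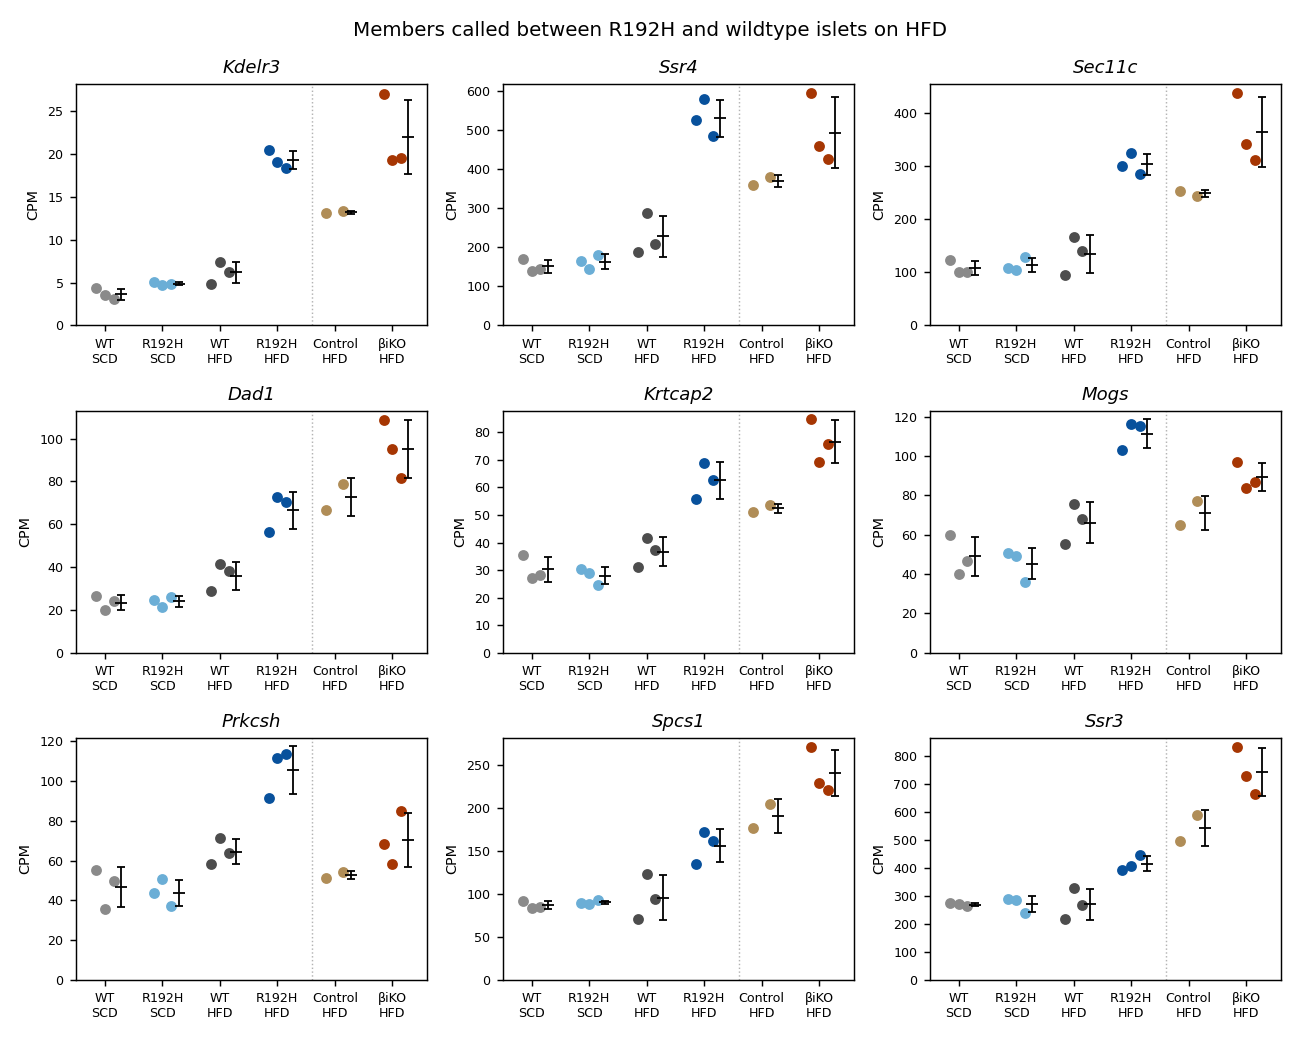
Level of the 9 genes called between *Pax4* R192H and wildtype islets on HFD, in CPM on a linear axis from 0, for each mouse (points, in the order of the mouse numbers) with the group mean and SD (bars). The dotted line separates the 2 tables, which were normalized separately. In each panel the 3 *Pax4* R192H mice on HFD lie above the 3 wildtype mice on HFD, and for *Kdelr3* they lie between 18.3 and 20.4 CPM against 4.85 to 7.40 CPM.

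The 3 KDEL receptors bind ER chaperones that reach the Golgi and return them. *Kdelr3* had the largest rise of the 56 genes on HFD. Its level was 4.85, 7.40 and 6.25 CPM in wildtype mice and 20.4, 19.1 and 18.3 CPM in *Pax4* R192H mice, which gave a log2 fold change of 1.64 ± 0.18 (adjusted p by edgeR, 0.00102). The 3 *Pax4* R192H mice were close together and far above the wildtype mice. *Kdelr1* was 33.1, 46.7 and 38.8 CPM in wildtype mice and 52.5, 54.8 and 53.6 CPM in *Pax4* R192H mice. *Kdelr2*, the most abundant of the 3, was 105, 129 and 123 CPM in wildtype and 142, 149.7 and 147 CPM in *Pax4* R192H mice. Neither overlapped between genotypes, yet their log2 fold changes of 0.44 ± 0.15 (adjusted p = 0.163) and 0.30 ± 0.14 (adjusted p = 0.313) did not pass the test.

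The level of one receptor against another was measured as a ratio of CPM per kilobase of exon. The kilobases count every base that any annotated transcript uses, so the size of such a ratio, and ranks per kilobase, depend on the annotation. The change of a ratio between groups does not. *Kdelr3* reached 0.0666 of the *Kdelr2* level in wildtype islets on HFD and 0.171 of it in *Pax4* R192H islets on HFD, a difference of 1.36 on the log2 scale without overlap between the mice (two-sided exact permutation test, p = 0.1, the smallest that 3 against 3 allows). Against *Kdelr1* the ratio went from 0.206 to 0.477, again without overlap (exact p = 0.1). On SCD the ratio to *Kdelr2* was 0.0493 in wildtype and 0.0689 in *Pax4* R192H islets, also without overlap (exact p = 0.1), and that to *Kdelr1* 0.191 and 0.264, with overlap (exact p = 0.2). These belong to 8 ratios between related genes in 5 comparisons, and with 3 mice per group none could pass 0.05. *Kdelr3* stayed the least abundant KDEL receptor in each group.

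The promoters of these genes were read because several are textbook targets of the unfolded protein response. RefSeq windows of 250 bases before to 50 after the start (GRCm38.p6) were present for 44 of the 56 genes. The unfolded protein response element (UPRE, letters TGACGTGG on either strand), which XBP1 binds, lay in the window of 6 of these 44, or 13.6%, against 0.715% of 26994 genes with a window and 1.00% of the 11792 tested genes with one. The ER stress response element ERSE (CCAAT, any 9 bases, CCACG) was in 0 of the 44 windows and in 0.137% of all genes. The shorter ERSE-II (ATTGG, any 1 base, CCACG) was in 1 of the 44, or 2.27%, and in 0.0445% of all genes. CCACG alone, which is part of each of these elements when both strands are read, was in 70.5% of the members' windows, 50.4% of those of tested genes and 35.5% of all. The median GC content was 58.0% in the members' windows, 60.3% in those of tested genes and 52.7% in all.

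The windows with a match are shown for the 2 called genes that had one and for *Sec24d* and *Copb1*, which had one and were not called, with the matched letters in capitals and the sequence 5′ to 3′ on the strand of the gene. *Kdelr3* (chr15:79516308-79516407, plus strand) carries the UPRE in reverse 30 bases before its start, *Krtcap2* (chr3:89246480-89246509, plus strand) an ERSE-II 17 bases after its start, *Sec24d* (chr3:123267396-123267495, plus strand) a UPRE 26 bases before and *Copb1* (chr7:114254681-114254780, minus strand) one in reverse 28 bases before.
Kdelr3: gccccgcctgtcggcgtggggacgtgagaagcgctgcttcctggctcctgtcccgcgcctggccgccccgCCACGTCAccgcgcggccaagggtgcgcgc
Krtcap2: agggacacggATTGGACCACGgacggggcg
Sec24d: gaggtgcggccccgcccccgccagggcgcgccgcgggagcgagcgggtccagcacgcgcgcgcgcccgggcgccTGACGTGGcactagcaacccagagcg
Copb1: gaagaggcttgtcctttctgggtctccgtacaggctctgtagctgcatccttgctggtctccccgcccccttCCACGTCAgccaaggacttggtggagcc

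The UPRE was also in the windows of *Arf1*, *Copb2* and *Sec23a*. The members are given with and without a match as a description, with no test. The median log2 fold change between genotypes on HFD was 0.33 over the 7 genes with a UPRE or ERSE-II, 2 of them called, and 0.35 over the other 49, 7 of them called. The 49 include the 12 genes without a window. A match is a matter of letters and does not show that a factor binds there.

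The TRAP complex has 4 subunits and stands beside the Sec61 channel. *Ssr4*, its delta subunit, was 188, 287 and 208 CPM in wildtype and 526, 578 and 484 CPM in *Pax4* R192H islets on HFD, with a log2 fold change of 1.22 ± 0.17 (adjusted p by edgeR = 0.00429). *Ssr3*, the gamma subunit, was 217, 327 and 267 CPM in wildtype and 393, 407 and 447 CPM in *Pax4* R192H islets, with 0.62 ± 0.15 (adjusted p = 0.0474). For both, the lowest *Pax4* R192H mouse exceeded the highest wildtype mouse. *Ssr2* was 114, 158 and 151 CPM against 197, 222 and 209 CPM and did not pass the test, with a log2 fold change of 0.57 ± 0.17 (adjusted p = 0.0962). *Ssr1*, the alpha subunit, overlapped between genotypes with 209, 255 and 223 CPM in wildtype and 251, 268 and 299 CPM in *Pax4* R192H islets, a log2 fold change of 0.25 ± 0.15. The 4 subunits of a complex thus differed from each other in the size of the measured difference, from 0.25 to 1.22 on the log2 scale.

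None of the 6 translocon genes was called, although all 6 had a positive log2 fold change, with a median of 0.35. *Sec61b*, the beta subunit of the channel, had the largest, at 95.3, 137 and 125 CPM in wildtype and 152, 194 and 174 CPM in *Pax4* R192H islets (log2 fold change 0.54 ± 0.16, adjusted p = 0.106). *Sec61a1*, which forms the pore, was 234, 269 and 258 CPM in wildtype and 342, 348 and 346 CPM in *Pax4* R192H islets (0.44 ± 0.14, adjusted p = 0.107). *Sec61g* was 77.1, 117 and 93.9 CPM against 117, 153 and 126 CPM. *Sec63*, which links the channel to the chaperone BiP, had the smallest log2 fold change of the 6, at 0.22 ± 0.17, with 63.1, 48.5 and 43.9 CPM against 65.9, 50.6 and 64.0 CPM. The channel subunits *Sec61a1* and *Sec61b* did not overlap between genotypes, and *Sec63* did.

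Signal peptidase has 3 accessory subunits and 1 of 2 related catalytic subunits, *Sec11a* or *Sec11c*. *Sec11c* was 95.7, 166 and 141 CPM in wildtype and 299.6, 324 and 285 CPM in *Pax4* R192H islets on HFD, with a log2 fold change of 1.17 ± 0.18 (adjusted p by edgeR = 0.00622). *Spcs1* was 70.5, 123 and 93.6 CPM in wildtype and 134, 172 and 162 CPM in *Pax4* R192H islets, with 0.70 ± 0.17 (adjusted p = 0.0474). Both rose without overlap, and wildtype mouse 1 was the lowest mouse for each. *Sec11a* was 38.5, 59.5 and 51.9 CPM against 59.8, 72.6 and 70.2 CPM and did not pass the test (0.44 ± 0.16, adjusted p = 0.181). *Spcs3*, with the smallest log2 fold change of the 5, was 250.3, 294 and 268 CPM against 309, 343 and 358 CPM (0.32 ± 0.12, adjusted p = 0.185).

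The 2 catalytic subunits were compared as a ratio in each mouse. Per kilobase of exon, *Sec11c* stood at 1.69, 1.89 and 1.84 times the level of *Sec11a* in the wildtype mice on HFD. In the *Pax4* R192H mice on HFD the ratio was 3.39, 3.02 and 2.75. The geometric means of 1.80 and 3.05 differed by 0.76 on the log2 scale, without overlap (two-sided exact permutation test, p = 0.1, the smallest possible). On SCD they were 1.65 and 1.92, a difference of 0.22 without overlap (exact p = 0.1), and between control and βiKO islets 2.27 and 2.62 with overlap (exact p = 0.6). Whether the difference on HFD exceeded that on SCD was not tested for the ratio.

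Oligosaccharyltransferase transfers the glycan to the growing protein, with *Stt3a* or *Stt3b* as the catalytic subunit. *Dad1*, a small subunit shared by both forms of the enzyme, was 28.6, 41.3 and 38.1 CPM in wildtype and 56.5, 72.7 and 70.2 CPM in *Pax4* R192H islets on HFD (log2 fold change 0.89 ± 0.16, edgeR adjusted p = 0.0157). *Krtcap2*, a subunit of the *Stt3a* form, was 31.2, 41.6 and 37.3 CPM in wildtype and 55.9, 68.9 and 62.8 CPM in *Pax4* R192H islets (0.77 ± 0.15, adjusted p = 0.0194). Both were without overlap between genotypes. *Rpn1* and *Ddost* followed with log2 fold changes of 0.67 ± 0.17 (adjusted p = 0.0579) and 0.56 ± 0.18 (adjusted p = 0.115), neither of which passed the test. *Rpn1* was 254, 344 and 319 CPM in wildtype and 435, 515 and 505 CPM in *Pax4* R192H islets, and *Ddost* 284, 368 and 349 CPM against 451, 532 and 499 CPM. *Rpn2* was 394, 474 and 419.8 CPM against 507, 577 and 622 CPM (0.40 ± 0.17). In each of these 3 genes the *Pax4* R192H mice lay above the wildtype mice.

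The catalytic subunits differed least. *Stt3a* was 149.8, 179 and 179 CPM in wildtype and 175, 217 and 207 CPM in *Pax4* R192H islets, which overlapped, with a log2 fold change of 0.24 ± 0.15. *Stt3b* was 84.1, 91.1 and 83.2 CPM against 103, 112 and 110.5 CPM, without overlap, with 0.34 ± 0.11 (edgeR adjusted p = 0.12). The ratio of *Stt3a* to *Stt3b* per kilobase was 0.926 in wildtype and 0.863 in *Pax4* R192H islets on HFD, with overlap (exact permutation p = 0.4). All 8 genes of the enzyme had a positive log2 fold change, with a median of 0.53.

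In glycan trimming, *Mogs* (glucosidase I, which removes the outermost glucose) and *Prkcsh* (the beta subunit of glucosidase II) rose together. *Mogs* was 55.0, 75.4 and 68.1 CPM in wildtype and 103, 116 and 115 CPM in *Pax4* R192H islets on HFD (log2 fold change 0.75 ± 0.17, edgeR adjusted p = 0.0414). *Prkcsh* was 58.4, 71.2 and 63.9 CPM in wildtype and 91.5, 111 and 113 CPM in *Pax4* R192H islets (0.71 ± 0.17, adjusted p = 0.0459). *Ganab*, the catalytic partner of *Prkcsh* in glucosidase II, was 106, 81.2 and 92.0 CPM against 101, 106 and 111 CPM, which overlapped, with 0.19 ± 0.12 (adjusted p = 0.465). *Dpagt1*, which starts the dolichol-linked glycan, was 6.96, 9.18 and 7.97 CPM against 9.80, 10.5 and 10.6 CPM (0.36 ± 0.15), without overlap and without passing the test.

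The COPII coat was the 1 role in which log2 fold changes of both signs occurred on HFD. Of its 11 genes, 6 were positive and 5 negative, none was called, and the median was 0.09. *Sec13*, part of the outer cage, had the largest log2 fold change, at 71.0, 98.3 and 88.3 CPM in wildtype and 122, 129 and 129 CPM in *Pax4* R192H islets (0.56 ± 0.18, adjusted p = 0.118). *Sec31a*, with which it forms that cage, was 122, 78.4 and 85.5 CPM against 100.04, 77.6 and 91.1 CPM (-0.09 ± 0.18), so that the genotypes overlapped. *Sec16a*, which marks ER exit sites, was 148, 88.4 and 85.8 CPM against 112, 71.6 and 92.8 CPM (-0.22 ± 0.22). Without wildtype mouse 1, the highest for *Sec16a*, its log2 fold change was 0.08. In that fit 54 of all 56 genes were positive, against 51 with every mouse, so that most of the negative signs rested on that mouse. With every mouse, the remaining negative values were -0.07 for *Sec24c*, -0.05 for *Sec24a* and -0.01 for *Sec23a*.

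Related COPII subunits were set side by side, since each pair serves the same step of the coat. *Sec23b* stood at 3.18 times the level of *Sec23a* per kilobase in wildtype and 4.15 times in *Pax4* R192H islets on HFD, without overlap (exact permutation p = 0.1, the smallest possible). *Sec24d* stood at 1.61 and 2.10 times *Sec24c*, also without overlap (exact p = 0.1), and at 12.5 and 15.9 times *Sec24a*, with overlap (exact p = 0.3). *Sar1a*, one of the small GTPases that start the coat, stood at 1.41 and 1.61 times *Sar1b*, with overlap (exact p = 0.3). *Sec24a* was the least abundant of the 56 genes per kilobase in each of the 6 groups, with 1.23 CPM per kilobase in wildtype islets on SCD.

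The 8 COPI genes all had positive log2 fold changes on HFD, from 0.09 for *Copg1* to 0.46 for *Cope*, with a median of 0.28, and none was called. *Cope* was 76.3, 82.0 and 80.2 CPM in wildtype and 106, 114 and 107 CPM in *Pax4* R192H islets (0.46 ± 0.19, adjusted p = 0.235), without overlap. *Copg1* was 175, 153 and 159 CPM against 170.5, 169.9 and 178 CPM, with overlap. *Copz1* was 35.9, 45.9 and 41.2 CPM against 47.2, 56.7 and 56.2 CPM (0.38 ± 0.16).

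The 6 cargo receptors sort proteins into vesicles, and none of them was called on HFD. In all 6 the 3 *Pax4* R192H mice lay above the 3 wildtype mice, an order that 13% of all tested genes showed. *Tmed10*, a p24 protein, was the 1 member with an adjusted p below 0.05 and a log2 fold change too small to be called. It was 86.2, 88.5 and 94.9 CPM in wildtype and 122, 123 and 119 CPM in *Pax4* R192H islets (0.43 ± 0.10, edgeR adjusted p = 0.0424). *Tmed9* had the largest log2 fold change, at 71.8, 81.9 and 73.0 CPM against 100.04, 112 and 105 CPM (0.49 ± 0.16, adjusted p = 0.122). *Lman2* had the smallest, at 218, 252 and 236 CPM against 271, 272 and 289 CPM (0.24 ± 0.13). *Tmed2* and the oligosaccharyltransferase gene *Ddost* had the highest levels per kilobase of all 56 genes in each of the 6 groups, with *Tmed2* first except in *Pax4* R192H islets on HFD. *Tmed2* stood at 141 and *Ddost* at 119 CPM per kilobase in wildtype islets on SCD, where *Kdelr3* stood at 2.59.

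**Figure D2:**
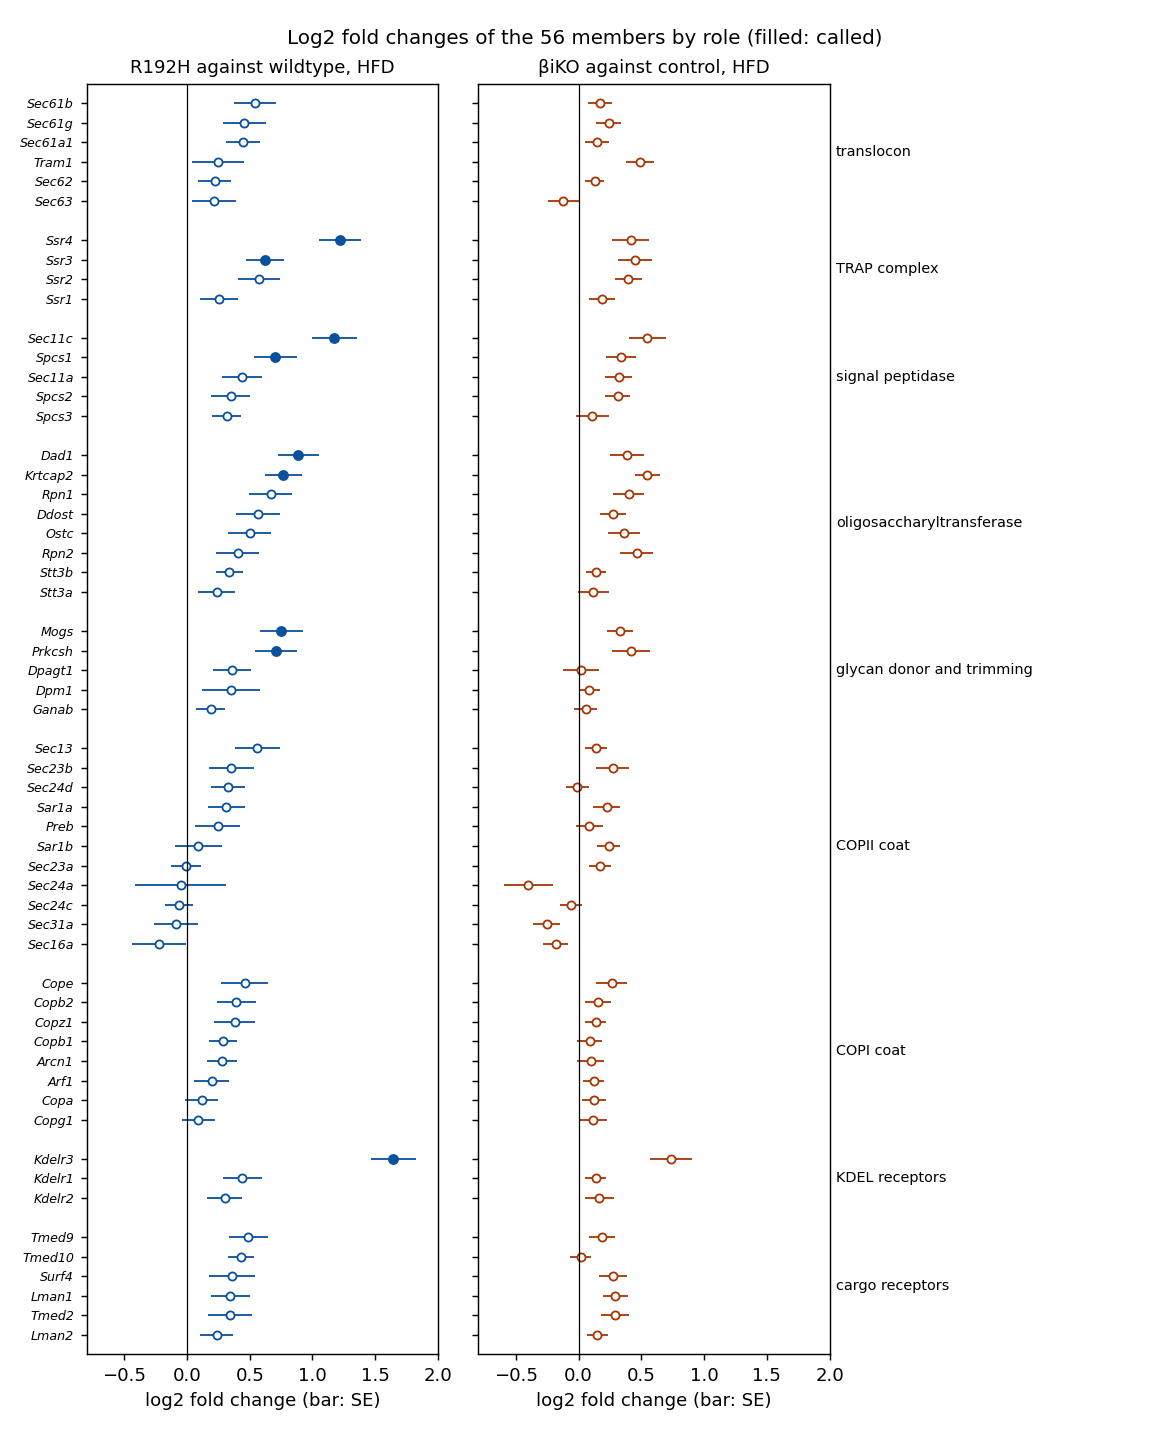
Log2 fold change (axis, log2 scale) of each of the 56 genes, grouped by role, with its SE (bar), between *Pax4* R192H and wildtype islets on HFD (left, n = 3 and 3) and between *Pax4* βiKO and control islets on HFD (right, n = 3 and 2). Filled points are called, 9 on the left and 0 on the right, and negative values on the left occur in the COPII coat alone, for 5 of its 11 genes.

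The HFD was then compared with SCD within each genotype. The mice on HFD were 16 weeks old and those on SCD 12 weeks old, so that diet and age cannot be told apart. In wildtype islets 0 of the 56 genes were called, against 0.204% of all tested genes called higher, while 48 of the 56 log2 fold changes were positive, with a median of 0.21. At an unadjusted p below 0.05 there were 16 of the 56 genes, all with a positive log2 fold change, against 1313 genes higher and 1602 lower of all 19137 tested, and DESeq2 called 4, *Dad1*, *Kdelr1*, *Kdelr3* and *Ssr4*, and 177 of the 39845 genes with any count higher. The number at an unadjusted p below 0.05 was 6 without wildtype mouse 2 on either diet, 9 without mouse 3 on SCD, 10 without mouse 3 on HFD and 25 without mouse 1 on HFD. The islet markers summed to 53569 to 67584 CPM on SCD and 75481 to 102870 CPM on HFD in wildtype, without overlap. The intestinal markers were also higher on HFD in each wildtype mouse, at 39.2 to 52.1 CPM and 62.1 to 72.7 CPM. Lower on HFD without overlap were the macrophage markers, at 92.0 to 148 CPM and 67.4 to 75.8 CPM, the stromal markers, at 48.2 to 255 CPM and 29.5 to 44.1 CPM, and the B and plasma cell markers, at 20.1 to 108 CPM and 1.54 to 4.19 CPM. The part of these markers in the result was not tested. The lowest adjusted p-values by edgeR belonged to *Kdelr3*, with a log2 fold change of 0.76 ± 0.18 (adjusted p = 0.0831), and *Kdelr1*, with 0.65 ± 0.16 (adjusted p = 0.0882). *Kdelr1* was 24.1, 26.2 and 25.3 CPM in wildtype mice on SCD and *Kdelr3* is given above. Both were higher on HFD without overlap between the diets, as were 8.47% of all tested genes.

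In *Pax4* R192H islets 34 of the 56 genes were higher on HFD than on SCD and none was lower, where 9.75% of all tested genes were called higher and 5.91% lower. The median log2 fold change was 0.62 against -0.06 over all tested genes, and 52 of the 56 were positive. With the acinar level as a covariate 0 of the 56 and 26 of all tested genes were called, while the median log2 fold change of the 56 was 0.76 and 35 were at an unadjusted p below 0.05. The acinar markers summed to 13269 to 19985 CPM on SCD and 38209 to 104480 CPM on HFD in *Pax4* R192H islets, without overlap, so that diet and acinar level cannot be told apart. The duct markers, at 79.4 to 103 CPM and 127 to 135 CPM, and the islet markers, at 61575 to 62991 CPM and 108780 to 122140 CPM, did not overlap either. Nor did the stromal markers, at 59.8 to 128 CPM and 35.3 to 56.5 CPM, and the endothelial markers, at 130.6 to 145.5 CPM and 145.7 to 159 CPM. The part of these markers in the result was not tested. All 9 genes called between genotypes on HFD were among the 34, and both comparisons use the same 3 *Pax4* R192H mice on HFD. The largest were *Kdelr3*, with a log2 fold change of 1.98 ± 0.18 (adjusted p by edgeR = 8.81e-05), *Ssr4*, with 1.70 ± 0.17 (adjusted p = 0.000109), *Dad1*, with 1.47 ± 0.17 (adjusted p = 0.000183), and *Sec11c*, with 1.42 ± 0.18 (adjusted p = 0.00037). On SCD the *Pax4* R192H mice had 164, 145 and 181 CPM of *Ssr4*, 24.8, 21.1 and 26.0 CPM of *Dad1* and 109, 104 and 129 CPM of *Sec11c*. Each of their values on HFD was above these, an order that 21.3% of all tested genes showed.

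By role, the genes that rose with HFD in *Pax4* R192H islets were 3 of 6 in the translocon, 3 of 4 in the TRAP complex, 3 of 5 in signal peptidase, 7 of 8 in oligosaccharyltransferase, 3 of 5 in glycan synthesis and trimming, 3 of 11 in the COPII coat, 3 of 8 in the COPI coat, and all of the 3 KDEL receptors and the 6 cargo receptors. The translocon genes called were the subunits of the channel itself, *Sec61a1*, *Sec61b* and *Sec61g*, which on SCD stood at 219, 213 and 168 CPM, 106, 92.5 and 79.0 CPM, and 77.0, 61.2 and 76.2 CPM. The catalytic *Stt3a* was the 1 oligosaccharyltransferase gene not called, with a log2 fold change of 0.10 ± 0.15. *Ddost* was 277, 269.9 and 201 CPM on SCD and rose by 0.99 ± 0.18 on the log2 scale (adjusted p = 0.00275). *Rpn1*, at 296, 279 and 234 CPM on SCD, and *Rpn2*, at 342, 349 and 255 CPM, each had a log2 fold change of 0.85 ± 0.17. The COPII genes called were *Sec13*, *Sec23b* and *Sar1a*, and the COPI genes *Cope*, *Copz1* and *Arf1*. The 4 negative values were -0.47 for *Sec24a*, -0.19 for *Sec23a*, -0.08 for *Sec16a* and -0.02 for *Sec63*, none of which passed the test.

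**Figure D3:**
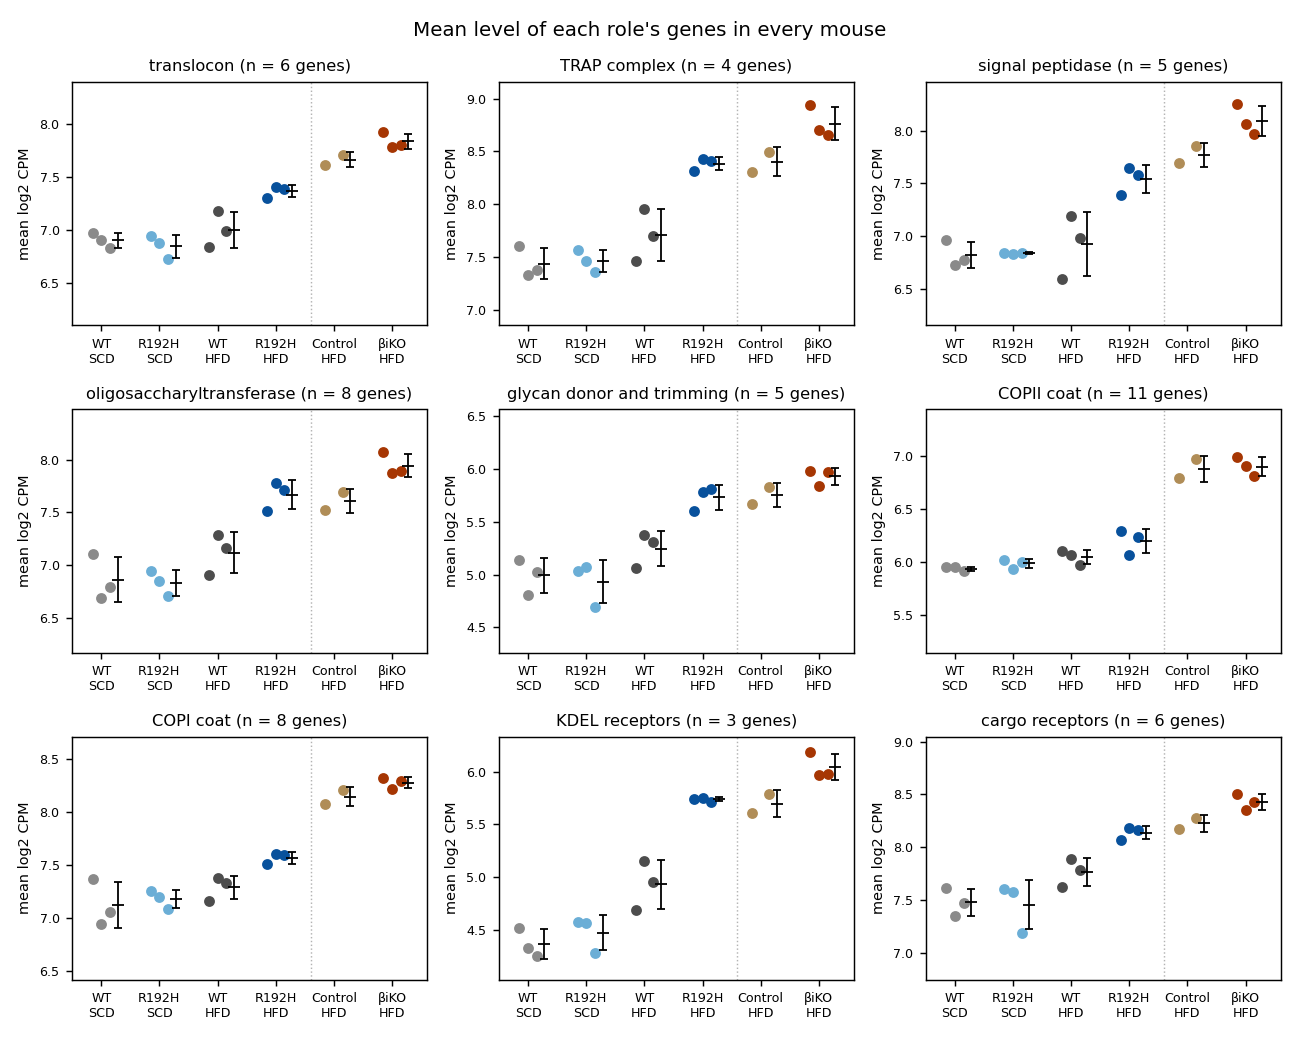
Mean log2 CPM over the genes of each role (vertical axis, log2 scale) in every mouse (points) with the group mean and SD (bars). The dotted line separates the 2 tables, which were normalized separately. In each role the 3 *Pax4* R192H mice on HFD lie above all other mice of their table, except in the COPII coat, where 1 of them lies among the wildtype mice on HFD.

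Whether the difference between genotypes itself changed with diet was tested as an interaction. None of the 56 genes was called, where 0.0888% of all tested genes were called higher. The estimate was positive for 49 of the 56, with a median of 0.38 on the log2 scale, and 20 were at an unadjusted p below 0.05, against 1309 positive and 838 negative genes of all 19137 tested. That number was 11 without wildtype mouse 1 on SCD and 13 without wildtype mouse 1 on HFD. *Kdelr3* had the largest at 1.23 ± 0.25 (edgeR adjusted p = 0.0673), followed by *Ssr4* at 1.11 ± 0.23 (adjusted p = 0.0762), *Sec11c* at 1.11 ± 0.25 (adjusted p = 0.101) and *Krtcap2* at 0.88 ± 0.21 (adjusted p = 0.117). DESeq2 called these 4 at the same threshold, and 215 of the 39845 genes with any count in the same direction. With the acinar level as a covariate 0 of the 56 and 0 of all tested genes were called, with a median of 0.55 and 15 at an unadjusted p below 0.05. The acinar markers summed to 38209 to 104480 CPM in *Pax4* R192H islets on HFD and 13128 to 25631 CPM in the other groups of the interaction. The interaction and the acinar level therefore cannot be told apart, and the part of the duct and islet markers was not tested. By edgeR without that covariate, 7 of the 56 genes were called without a filter on low counts, where 464 of 39845 genes were called higher. With at least 10 counts in every mouse, 2 of the 56 were called and 62 of 13864 genes were called higher. Without wildtype mouse 2 on HFD these numbers were 3 and 67 of 20294.

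Deletion of *Pax4* was examined in βiKO and control islets on HFD, in mice that share no sample with the comparisons above. None of the 56 genes was called, where 0.0595% of all tested genes were called higher. At an unadjusted p below 0.05 there were 22 genes with a positive and 0 with a negative log2 fold change, against 1256 and 1335 of all 20167 tested, and DESeq2 called 3, *Kdelr3*, *Krtcap2* and *Sec11c*, and 101 of the 38704 genes with any count higher. There were 6 at an unadjusted p below 0.05 without control mouse 1 and 7 without both mice numbered 1. The log2 fold change was positive for 50 of the 56, with a median of 0.17 against 0.01 over all tested genes. The duct, islet and endothelial markers were higher and the intestinal markers lower in the βiKO mice without overlap, at 258 to 319, 149050 to 156680, 196 to 235 and 106 to 113.60 CPM against 208 to 210.2, 133730 to 148910, 184 to 190.0 and 113.64 to 122 CPM in the controls, and their part in the result was not tested. All βiKO mice lay above both controls in 35 genes, against 15.9% of all tested genes, and below both in 3, against 16.7%. With 3 mice against 2, such an order is common among all genes.

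*Kdelr3* again had the largest log2 fold change, at 13.0 and 13.3 CPM in the controls and 27.0, 19.3 and 19.6 CPM in the βiKO mice (0.74 ± 0.17, edgeR adjusted p = 0.199). *Krtcap2* was 51.1 and 53.6 CPM against 84.8, 69.3 and 75.7 CPM (0.55 ± 0.10, adjusted p = 0.161). *Sec11c* was 253 and 244 CPM against 438, 342 and 312 CPM (0.55 ± 0.15, adjusted p = 0.255). All 3 were without overlap, and βiKO mouse 1 was the highest for each. The ratio of *Kdelr3* to *Kdelr2* per kilobase was 0.0920 in control and 0.134 in βiKO islets, without overlap (exact permutation p = 0.2, the smallest that 3 against 2 allows). *Tram1*, a translocon gene with a log2 fold change of 0.25 ± 0.20 in *Pax4* R192H islets on HFD, had 0.49 ± 0.11 here (adjusted p = 0.206), with 389.9 and 407 CPM in the controls and 585, 494 and 596 CPM in the βiKO mice.

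The other genes called between *Pax4* R192H and wildtype islets on HFD were also positive in the βiKO comparison without passing the test. *Ssr4* was 359.6 and 380.3 CPM in the controls and 596, 459 and 426 CPM in the βiKO mice (0.42 ± 0.15). *Ssr3* was 498 and 589 CPM against 834, 728 and 665 CPM (0.45 ± 0.13), and *Dad1* 66.5 and 79.0 CPM against 109, 95.1 and 81.5 CPM (0.39 ± 0.13). *Mogs* was 65.0 and 77.1 CPM against 97.2, 83.8 and 87.0 CPM (0.33 ± 0.11), *Prkcsh* 51.4 and 54.2 CPM against 68.4, 58.1 and 84.9 CPM (0.42 ± 0.15), and *Spcs1* 176 and 205 CPM against 271, 229 and 221 CPM (0.34 ± 0.12). In these 6 genes, none of which passed, the lowest βiKO mouse was above the higher control, as in 15.9% of all tested genes.

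The 3 genes below both controls in all βiKO mice, of 56 against 16.7% of all tested genes, were *Sec24a*, *Sec31a* and *Sec16a*, and none passed the test. *Sec24a* was 31.0 and 34.4 CPM in the controls and 29.8, 26.6 and 18.0 CPM in the βiKO mice (log2 fold change -0.40 ± 0.19, edgeR adjusted p = 0.433). *Sec31a* was 162 and 177 CPM against 156, 147 and 124 CPM (-0.25 ± 0.11, adjusted p = 0.389), and *Sec16a* 134 and 157 CPM against 133, 121 and 129.8 CPM (-0.18 ± 0.10, adjusted p = 0.466). Of the 56 genes, 49 were positive in both genotype comparisons on HFD and 4 were negative in both, *Sec16a*, *Sec24a*, *Sec24c* and *Sec31a*, all of the COPII coat. *Sec24d* and *Sec63* were positive in *Pax4* R192H and negative in βiKO islets, and *Sec23a* the reverse. The median log2 fold change over the 56 genes was 0.11 without control mouse 1, 0.29 without control mouse 2 and 0.05 without both mice numbered 1, which carried the most acinar RNA of their groups, and 39 were then positive.

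The size of the difference went with the length of the gene's exons. Over the 56 genes, Spearman's rho between the log2 fold change and the union exon length, which counts every base that any annotated transcript uses, was -0.52 for *Pax4* R192H against wildtype on HFD and -0.51 for βiKO against control. Over all tested genes with a length, rho was -0.18 and -0.15. The 28 members of 4248 bases or less had a median log2 fold change of 0.46 on HFD, 7 of them called, and the 28 longer ones 0.26, 2 of them called. In βiKO islets the medians were 0.27 and 0.12. On SCD rho was 0.36 between genotypes over the members and 0.06 over all genes. These values share libraries and are given as a description. Over the members, rho with the mean level was -0.04 for *Pax4* R192H against wildtype on HFD and 0.23 for βiKO against control. *Kdelr3*, at 1411 bases, is among the shortest of the 56, and *Sec11c*, at 6808 bases, is longer than their median. The part of length in the result was not tested.

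**Figure D4:**
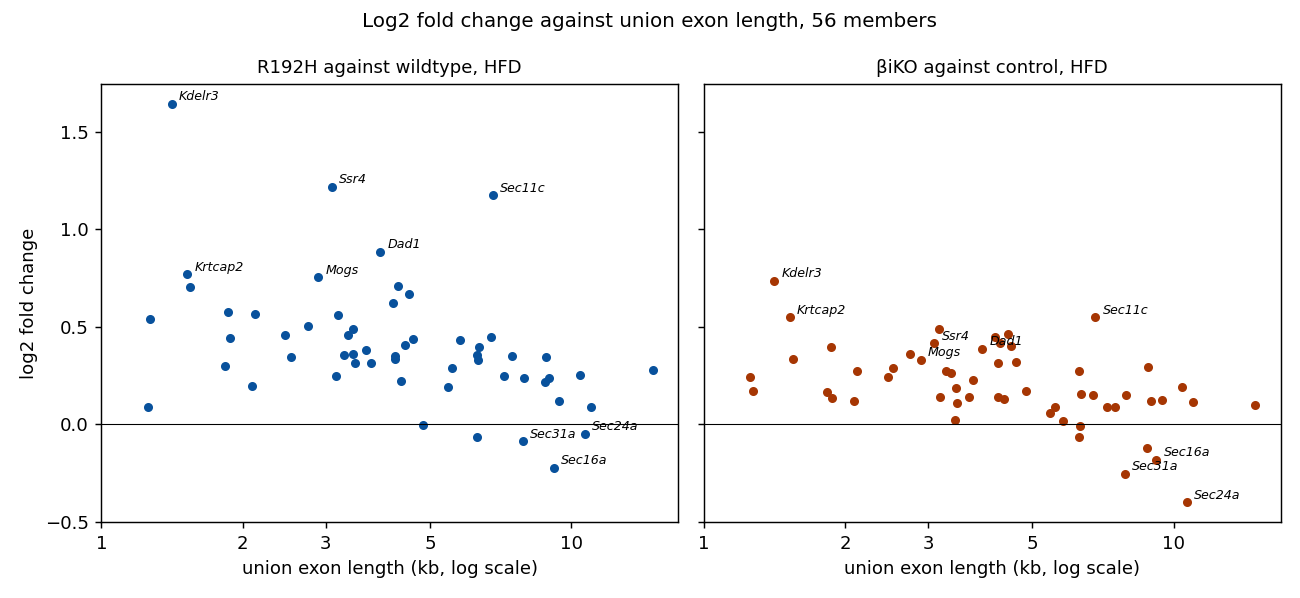
Log2 fold change (vertical axis, log2 scale) of each of the 56 genes against its union exon length in kilobases (horizontal axis, log scale), for *Pax4* R192H against wildtype (left) and *Pax4* βiKO against control (right) on HFD. Short genes such as *Kdelr3* and *Krtcap2* have high values in both panels, and the lowest values in both belong to long COPII genes, with a rho of -0.52 on the left and -0.51 on the right.

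Other genes of the same machinery were counted from a list of 93 symbols, of which 89 were found and 88 tested (signal recognition particle and its receptor, ER membrane complex, further oligosaccharyltransferase, dolichol, COPII, COPI and p24 genes). On HFD, 7 of the 88 were higher and 1 lower in *Pax4* R192H than in wildtype islets, against 1.46% and 0.82% of all tested genes. Of the 88, 74 had a positive log2 fold change, and the median was 0.30. With the acinar covariate 0 of all tested genes were called in this comparison. The 3 of lowest p were *Ergic1*, which cycles between ER and Golgi, *Tmed3*, a p24 protein, and *Dpm3*, a subunit of the enzyme that makes dolichol-phosphate mannose. *Ergic1* was 44.5, 39.0 and 38.2 CPM in wildtype and 66.6, 63.5 and 69.4 CPM in *Pax4* R192H islets (0.71 ± 0.11, edgeR adjusted p = 0.00639). *Tmed3* was 228, 314 and 253 CPM against 471, 590.3 and 498 CPM (0.97 ± 0.17, adjusted p = 0.0117), and *Dpm3* 19.0, 24.7 and 24.04 CPM against 33.5, 40.2 and 36.7 CPM (0.70 ± 0.13, adjusted p = 0.0182). All 3 were without overlap between genotypes. In *Pax4* R192H islets, 34 of the 88 were higher on HFD than on SCD and 1 was lower, against 9.75% and 5.91% of all tested genes, and 26 of all tested genes were called with the acinar covariate. No gene of the list was called in wildtype islets between diets, between genotypes on SCD or in the interaction. In βiKO islets 0 of the 88 were called and 69 were positive, with the lowest p for *Mcfd2*, at 113 and 119 CPM in the controls and 176, 148 and 158 CPM in the βiKO mice (0.47 ± 0.10, adjusted p = 0.173), then *Tmed3* (0.54 ± 0.13) and *Srp9* (0.46 ± 0.11), both at an adjusted p of 0.233.

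Acinar cells secrete digestive enzymes and use the same machinery at high levels, and their marker genes moved with genotype on HFD. The summed level of 25 acinar markers, none of them at 0 in any group, was 16689 to 25631 CPM in wildtype islets on HFD and 38209 to 104480 CPM in *Pax4* R192H islets on HFD, without overlap. On SCD it was 13128 to 25599 CPM in wildtype and 13269 to 19985 CPM in *Pax4* R192H islets. The 7 duct markers, none at 0, summed to 80.6 to 99.0 CPM in wildtype and 127 to 135 CPM in *Pax4* R192H islets on HFD, and the 10 islet markers to 75481 to 102870 CPM and 108780 to 122140 CPM. The B and plasma cell markers, 8 genes with *Igkc* at 0 in the wildtype mice, summed to 1.54 to 4.19 CPM and 1.76 to 34.6 CPM. The summed macrophage (7 genes), endothelial (5), stromal (6) and intestinal (6) markers overlapped between the genotypes on HFD. They were 67.4 to 75.8, 127 to 162, 29.5 to 44.1 and 62.1 to 72.7 CPM in wildtype and 60.1 to 81.7, 146 to 159, 35.3 to 56.5 and 67.2 to 87.7 CPM in *Pax4* R192H islets, with *Cdx1* and *Cdx2* of the intestinal list at 0 in wildtype. The part of these markers, duct and islet included, in the result was not tested.

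Within the *Pax4* R192H mice on HFD, the mouse with the most acinar RNA had the lowest mean over the 56 genes. Mouse 1, at 104480 CPM of acinar markers, had a mean log2 CPM of 7.09, and mice 2 and 3, at 38209 and 39998 CPM, had 7.17 and 7.18. With the acinar level as a covariate, 0 of the 56 genes were called between genotypes on HFD and 26 were at an unadjusted p below 0.05. The median log2 fold change was 0.50 with the covariate and 0.35 without it, and 51 values were positive in both. *Kdelr3* had 1.61 (edgeR adjusted p = 0.284), *Ssr4* 1.09 and *Sec11c* 1.10 (both adjusted p = 0.508). Since the acinar levels of the genotypes did not overlap on HFD, genotype and acinar level cannot be told apart in these mice.

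In the βiKO table the acinar markers summed to 109720 and 24466 CPM in the controls and 85529, 17385 and 22745 CPM in the βiKO mice, so that the groups overlapped. The mean log2 CPM over the 56 genes was 7.34 and 7.49 in the controls and 7.71, 7.57 and 7.57 in the βiKO mice. Mouse 1 of each group, with the most acinar RNA, was the lowest control and the highest βiKO mouse.

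**Figure D5:**
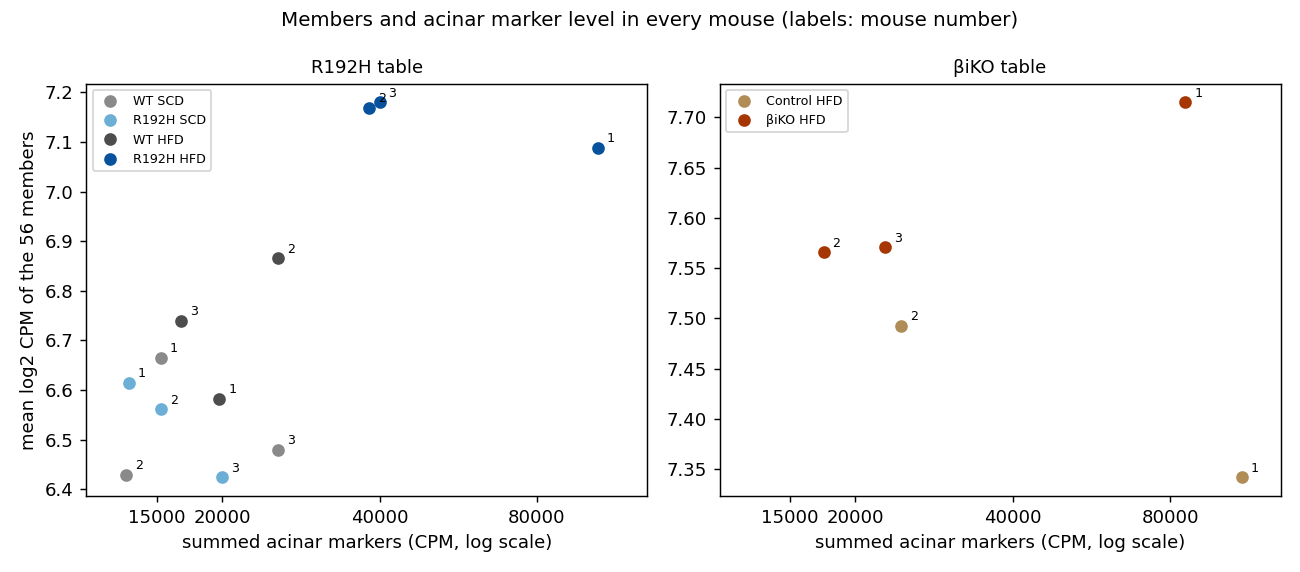
Mean log2 CPM of the 56 genes (vertical axis, log2 scale) against the summed level of the 25 acinar markers in CPM (horizontal axis, log scale) for each mouse of the R192H table (left) and the βiKO table (right), labelled with the mouse number. On the left the *Pax4* R192H mice on HFD lie highest and farthest right, with mouse 1 farthest right and lowest of the 3.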

How the data were processed

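Islet RNA of 17 samples was measured by bulk RNA-seq, in 2 deposited tables. Reads of stranded total RNA libraries had been aligned by the authors to mm10 (STAR 2.7.1), and transcript abundance from RSEM 1.3.3, summed by tximport, gave the deposited expected counts for each gene. The annotation release is not given in the sources used here. GENCODE M21 named 65.8% and 66.7% of the identifiers. Expected counts were rounded, and each table was fitted in 1 edgeR 4.0.16 quasi-likelihood model (R 4.3.3) with a coefficient per group, after filterByExpr (minimum count 10) and TMM normalization. The SE is the size of the log2 fold change divided by the square root of F, and CPM are of the TMM-scaled library. Log2 CPM used a prior count of 2. p-values were adjusted over all tested genes. The authors' own test was DESeq2, used here as an alternative (1.42.0). SciPy 1.17.1 gave the exact tests. Floors of 3 counts cover counting error only.

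Groups came from the sample labels, and no sample was left out. The members, the pathway list and the marker lists were chosen with earlier results of these data known. Values of single mice are given, in groups where they are discussed, for the 25 called members of lowest adjusted p and for the members of highest and lowest log2 fold change of each role on HFD. The related genes are compared by ratios, for *Sec23a*, *Sec23b*, *Sec24c*, *Sec24d*, *Sar1a* and *Sar1b* without values of single mice. The pathway list is given by its 3 genes of lowest p in each genotype comparison on HFD. *Tram1* and the negative members beyond these were named after their values were seen. Alternatives were RLE size factors, other count filters, leaving out the 2 largest genes, only the 2 groups compared, the replicate number as a block, an acinar covariate, DESeq2 and leaving out each mouse. Scripts were tested on simulated data. Members with close relatives can share reads that RSEM divides by estimate.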

Additional observations from a re-analysis of the deposited data

How the results depend on the processing

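The number of the 56 genes called between *Pax4* R192H and wildtype islets on HFD was 9. In this paragraph the number of all genes called higher in the same fit follows in parentheses, which was 280 of 19137 here. The count of members was 14 (789 of 39845) without a filter on low counts and 14 (616 of 39845) with DESeq2, which added *Ddost*, *Rpn1*, *Sec13*, *Sec61b* and *Ssr2*. It was 0 (0) with the acinar covariate, and leaving out 1 mouse at a time gave 3 to 8 (61 to 288). RLE size factors, a minimum of 10 counts in every mouse, leaving out the 2 largest genes and a model of the 2 groups alone gave 8 (275 of 19137), 10 (443 of 13864), 6 (254 of 19140) and 7 (217 of 16715). For the interaction, with 0 called (17 of 19137), the count was 7 (464 of 39845) without a filter and 2 (62 of 13864) with at least 10 counts in every mouse. It was 4 (215 of 39845) with DESeq2 and 0 to 3 (0 to 67) leaving out 1 mouse. Between diets in wildtype islets, with 0 called (39 of 19137), it was 4 (283 of 39845) without a filter, 4 (177 of 39845) with DESeq2 and 0 to 2 (5 to 77) leaving out 1 mouse. Between diets in *Pax4* R192H islets, with 34 called (1865 of 19137), it was 0 (23) with the acinar covariate and 28 to 33 (1169 to 1520) leaving out 1 mouse. In βiKO islets, with 0 called (12 of 20167), it was 3 (335 of 38704) without a filter, 3 (101 of 38704) with DESeq2 and 0 (3 to 16) leaving out any 1 βiKO mouse. On SCD it was 0 in all fits run. The cause of these changes was not tested.

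With the replicate number as a block, 4 genes were called between genotypes on HFD (*Dad1*, *Kdelr3*, *Sec11c* and *Ssr4*), where 93 of all 19137 tested genes were called higher. There were 33 between diets in *Pax4* R192H islets, beside 1532 of all genes, and 1 in βiKO islets (*Sec11c*), beside 49 of 20167. Without the block, 280, 1865 and 12 of all genes were called higher in these 3 comparisons. Whether the numbers pair the mice was not settled. Between genotypes on HFD, the correlations of same-numbered mice were 0.19, 0.11 and -0.05 in the R192H table. Those of differently numbered mice ran from -0.24 to 0.14. In the βiKO table they were 0.07 and 0.04 for the same number and -0.07 to 0.04 for different numbers. With 2 controls, each departs from their mean by the same amount in opposite directions, so the values there cannot decide.

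The median log2 fold change with the acinar covariate was 0.50 between genotypes on HFD, 0.55 for the interaction and 0.76 between diets in *Pax4* R192H islets. In βiKO islets it was 0.11 to 0.29 leaving out 1 mouse and 0.0456 without both mice numbered 1, an alternative chosen after seeing the data. Over all 56 genes, 54 were positive between genotypes on HFD without wildtype mouse 1, against 51 with every mouse. In βiKO islets 46 were positive without control mouse 1, against 50. Signs were followed one by one for called genes and for the highest and lowest of each role on HFD. Among these, leaving out 1 mouse at a time turned the sign for *Sec16a* between genotypes on HFD (-0.38 to 0.0801, the latter without wildtype mouse 1). In βiKO islets it turned for *Kdelr2* (-0.00215 to 0.36) and *Stt3a* (-0.0475 to 0.31), both without control mouse 1. Without both mice numbered 1, 39 of the 56 genes were positive. Among the genes followed one by one, the sign then turned for *Tmed9* (-0.00123, against 0.0377 to 0.35 leaving out 1 mouse), *Ganab* (-0.0335, against 0.011 to 0.11), *Kdelr2* (-0.0619), *Stt3a* (-0.102) and *Spcs3* (-0.0736, against 0.000481 to 0.21). None of these had passed the test. Depth did not limit detection, since the lowest level of any of the 56 genes in a mouse was 3.09 CPM (*Kdelr3*), above the 0.126 CPM that 3 counts make at most.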
